A study of Homo sapiens with 12 samples.

Results

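The lysyl oxidase family holds 5 genes, LOX, LOXL1, LOXL2, LOXL3 and LOXL4, which were followed in the MDA-MB-231 line, derived from a human breast cancer that lacks hormone receptors and known for its mesenchymal, invasive behaviour. The 5 genes were matched by symbol among 60649 gene IDs, and each passed the filter on low counts that left 17576 genes for testing. LOXL1, LOXL2, LOXL3 and LOXL4 entered by their family name. The family was chosen on the level of LOX, which is lower in both single knockdowns and lower again in the double knockdown, so the differences of LOX are given as a description without a test.

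Total RNA was sequenced from 12 libraries in 4 groups of 3. Double KD cells carried short hairpin RNAs (shRNAs) against both SIRT1, an NAD-dependent deacetylase, and IGF2BP2, an RNA-binding protein known for stabilising many transcripts; SIRT1 KD and IGF2BP2 KD cells were targeted at that gene alone, and control cells received a sham hairpin. In each group the hairpins came on lentivirus packaged in HEK-293T cells, infection used Polybrene at 8 µg/mL, and cells were held under puromycin at 2.0 µg/mL in RPMI-1640 with 10% serum. The series asks which genes depend on SIRT1 and on IGF2BP2. All groups derive from a single cell line, and neither the number of hairpins per target nor whether the 3 runs were separate infections is stated in the sources used here. The p-values therefore measure a spread among runs that may be technical.

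Lysyl oxidases are copper-dependent amine oxidases. They oxidise lysines of collagens and elastin outside the cell, and the aldehydes formed react into the covalent cross-links that make matrix stiff and insoluble. LOX and LOXL1 are made as proenzymes with a propeptide that is cut off by BMP1-type proteases. LOXL2, LOXL3 and LOXL4 instead carry scavenger receptor cysteine-rich domains ahead of the shared catalytic domain. In breast cancer LOX is known as a gene induced by hypoxia and by TGF-beta and has been linked to invasion and metastasis.

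LOX (ENSG00000113083.15) lies on chromosome 5 at 122063195 to 122078360 on the minus strand, and LOXL4 (ENSG00000138131.4) on chromosome 10 at 98247690 to 98268250 on the minus strand, both in GRCh38 with GENCODE 29. They are the members with the largest differences in the double KD, and their promoter windows, from RefSeq on GRCh38.p14, are shown for that reason. Each window runs from 250 bases before to 50 bases after an annotated start, 5′ to 3′ on the gene's strand. Capitals mark ACGTG (the core of the hypoxia response element), CAGAC (the SMAD-binding element) and GGGGCGGGG (SP1), each searched on both strands. The LOX window lies at chr5:122078210-122078509 and the LOXL4 window at chr10:98268145-98268444.
LOX promoter: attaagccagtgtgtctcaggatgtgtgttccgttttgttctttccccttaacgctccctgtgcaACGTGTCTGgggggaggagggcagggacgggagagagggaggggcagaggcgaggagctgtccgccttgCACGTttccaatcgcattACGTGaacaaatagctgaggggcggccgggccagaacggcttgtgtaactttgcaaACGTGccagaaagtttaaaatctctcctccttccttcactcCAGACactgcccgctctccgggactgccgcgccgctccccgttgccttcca
LOXL4 promoter: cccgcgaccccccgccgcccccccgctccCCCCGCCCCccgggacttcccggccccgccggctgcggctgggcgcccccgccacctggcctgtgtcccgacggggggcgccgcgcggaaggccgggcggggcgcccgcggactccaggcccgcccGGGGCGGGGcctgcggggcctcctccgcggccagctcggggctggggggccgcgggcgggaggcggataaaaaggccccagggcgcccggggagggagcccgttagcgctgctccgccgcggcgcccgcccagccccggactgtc

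The LOX window held 4 matches to ACGTG and 2 to CAGAC, and 1 ACGTG overlapped a GTCTG, the reverse complement of CAGAC. Both other LOX windows in the table, which lie further downstream, held 1 ACGTG and 2 CAGAC. LOXL4 held neither of these motifs and had 2 matches to GGGGCGGGG, in a window of 85.3% G and C, against 58% in the LOX window and a median of 58.7% over all 35116 windows. Among all windows 21.4% held an ACGTG, 45.3% a CAGAC and 15.7% a GGGGCGGGG. The LOXL1 window held 1 CAGAC only. Of the LOXL3 windows, 1 held a CAGAC and a GGGGCGGGG and the other held none of the 3 motifs. LOXL2 had no window in the table. These matches describe the sequence of the windows.

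A further stretch was shown because its 7-base words CTCAGAT and TCAGATA had been picked from these data in an earlier reading. LOX is the sole member that holds either word in its annotated 3′ UTR (transcript ENST00000231004.4). Both fall together in CTCAGATA, marked in capitals, 564 bases into a 3′ UTR of 3548 bases, and the stretch lies at chr5:122066161-122066190 on the minus strand of GRCh38.
LOX 3′ UTR stretch: caatacatgtaCTCAGATAgttacatccct

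Among 19420 genes searched, 20.2% hold either word. Among the 7125 with a 3′ UTR within 2 times the length of that of LOX, shorter or longer, 34.7% do. The 3′ UTRs of LOXL1 (695 bases), LOXL2 (854 bases), LOXL3 (1168 bases) and LOXL4 (1231 bases) are shorter than that of LOX, and 9.14% to 16.2% of genes with 3′ UTRs of comparable length hold a word.

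Libraries held 19522606 to 22509142 reads assigned to genes in 11 cases, and double KD replicate 2 held 15243152. That library stood apart from its group. The SD of its log2 values to the mean of its partners was 0.438, against 0.233 to 0.342 in the other 11, and mitochondrially encoded genes made up 1.18% of its reads, against 1.99% to 2.57%. The member differences described below and the double KD list counts are given with and without it. The unit is the size-factor-normalised read count (normalised count), and errors are the SD over 3 libraries. SIRT1 had 380 to 436 normalised counts in double KD, 496 to 547 in SIRT1 KD, 691 to 763 in IGF2BP2 KD and 799 to 863 in control libraries. IGF2BP2 had 715 to 992 in double KD, 3721 to 3791 in SIRT1 KD, 709 to 841 in IGF2BP2 KD and 3045 to 3127 in control libraries. The mesenchymal markers VIM, CD44, AXL, PLAUR, S100A4 and SPARC were all detected. Of 5 luminal and hormone receptor markers, ESR1, PGR and FOXA1 were too low to test, while ERBB2 averaged 2262 in double KD, 2397 in SIRT1 KD, 2139 in IGF2BP2 KD and 2353 in control cells, and GATA3 averaged 134, 156, 217 and 202 in the same order. Of 10 epithelial markers 7 were tested, and their list summed to 20575 to 28946 in double KD, 25720 to 27962 in SIRT1 KD, 21987 to 23213 in IGF2BP2 KD and 23582 to 24513 in control libraries, most of it KRT8, KRT18 and CLDN4. Markers of the packaging line summed to at most 9.58 normalised counts in any library.

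LOX, the founding member, was lower in every knockdown library than in every control library. It had 514, 545 and 610 normalised counts in double KD cells, 1144, 1065 and 1152 in SIRT1 KD cells, 1261, 1271 and 1315 in IGF2BP2 KD cells, and 2686, 2519 and 2644 in control cells. The groups did not overlap, with the double KD libraries lowest, the SIRT1 KD and IGF2BP2 KD libraries close to each other, and the control libraries highest. Group means were 556 ± 48.8 in double KD, 1120 ± 47.9 in SIRT1 KD, 1282 ± 28.7 in IGF2BP2 KD and 2616 ± 87.1 in control cells (SD, n = 3 each). The double KD mean was 21.3% of control, the SIRT1 KD mean 42.8% and the IGF2BP2 KD mean 49.0%. In these bulk libraries, fewer cells making a transcript and less of it per cell cannot be told apart.

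**Figure D1:**
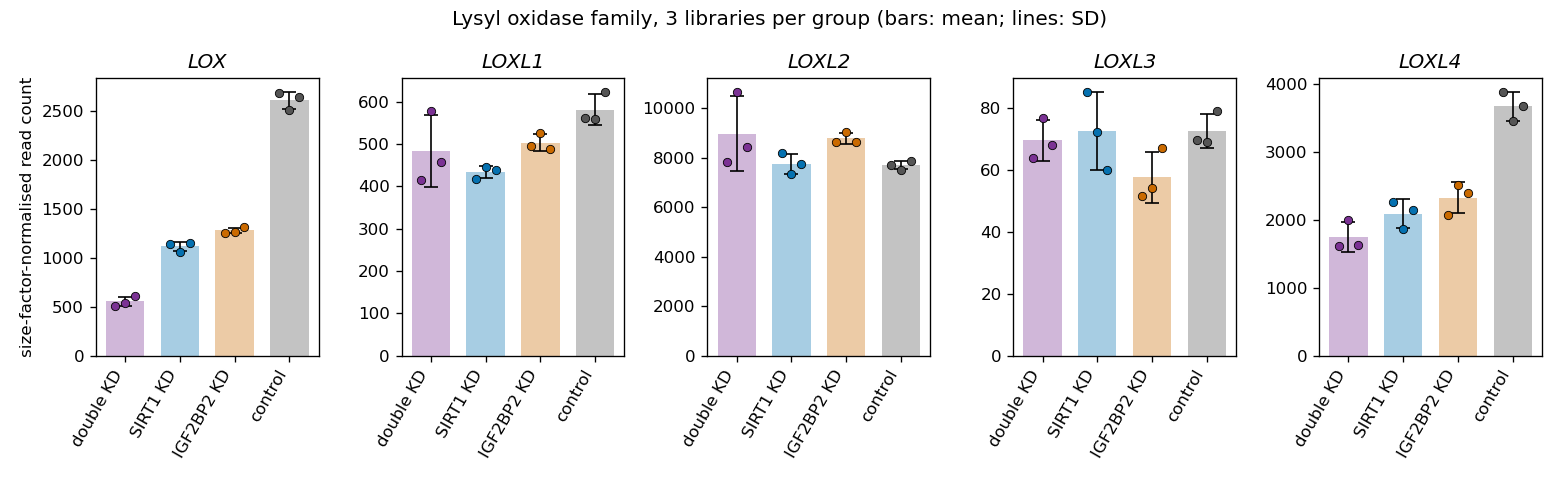
Size-factor-normalised read counts of the 5 lysyl oxidase genes in double KD, SIRT1 KD, IGF2BP2 KD and control cells; points are libraries, bars are means of 3 libraries and lines are the SD. LOX and LOXL4 lie highest in the 3 control libraries, LOXL2 spans 7343 to 10675 counts over all 12 libraries, and LOXL3 stays under 86 counts.

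On the log2(normalised count + 1) scale LOX differed from control by -2.23 in double KD, -1.22 in SIRT1 KD and -1.03 in IGF2BP2 KD cells, each with a standard error (SE) of 0.07. The double KD lay -1.01 from SIRT1 KD and -1.21 from IGF2BP2 KD on the same scale. As linear values, the double KD mean was 49.7% of the SIRT1 KD mean and 43.4% of the IGF2BP2 KD mean. Multiplying the single knockdown percentages of control gives 21.0%, beside the 21.3% measured. The interaction, which is the double KD change less the sum of the single knockdown changes, was 0.02 (SE 0.10, log2). Leaving out 1 library at a time moved it between -0.05 and 0.07, and moved the double KD difference between -2.30 and -2.18. Without double KD replicate 2 the double KD differed by -2.22 from control, by -0.998 from SIRT1 KD and by -1.19 from IGF2BP2 KD. SIRT1 itself was lower in double KD (380 to 436 normalised counts) than in SIRT1 KD libraries (496 to 547). IGF2BP2 averaged 3757 in SIRT1 KD and 3075 in control cells, and SIRT1 averaged 728 in IGF2BP2 KD and 834 in control cells. The products and interactions given here and below therefore compare unequal levels of both targets, and the effect of this was not tested.

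LOX shares 138 bases, or 2.49% of its exon length, with SRFBP1 on the opposite strand. The sources used here do not give the strand setting of the counting, so reads of the shared bases cannot be told apart. SRFBP1 had 473 to 566 normalised counts in double KD, 481 to 567 in SIRT1 KD, 360 to 417 in IGF2BP2 KD and 407 to 449 in control cells.

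Among the members given a test, LOXL4 alone passed against control in all 3 knockdown groups, each time as a fall. LOXL4 is a catalytically active family member with scavenger receptor domains. It had 1615, 1998 and 1630 normalised counts in double KD cells, 2263, 1856 and 2149 in SIRT1 KD cells, 2066, 2505 and 2386 in IGF2BP2 KD cells, and 3878, 3442 and 3668 in control cells. No knockdown library reached the lowest control library, while double KD and SIRT1 KD libraries overlapped, as did SIRT1 KD and IGF2BP2 KD libraries. The means were 1748 ± 217 in double KD (47.7% of control), 2089 ± 210.2 in SIRT1 KD (57.0%), 2319 ± 227 in IGF2BP2 KD (63.3%) and 3663 ± 218 in control cells (SD, n = 3 each).

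Against control, LOXL4 fell by 1.07 in double KD cells on the log2 scale (SE 0.10, adjusted p = 1.09e-07, limma with Benjamini-Hochberg adjustment over all genes tested). Its difference was -0.81 in SIRT1 KD cells (SE 0.10, adjusted p = 4.15e-06) and -0.66 in IGF2BP2 KD cells (SE 0.10, adjusted p = 9.86e-05). Each of these calls held with any 1 library left out, and without double KD replicate 2 the double KD difference was -1.17.

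The double KD also lay below IGF2BP2 KD for LOXL4, by -0.41 (95% interval -0.61 to -0.21, adjusted p = 0.00297), with no overlap between the libraries, and by -0.51 without double KD replicate 2 (adjusted p = 1.85e-06). Its difference from SIRT1 KD was -0.26 (95% interval -0.46 to -0.06) and missed the threshold in limma (adjusted p = 0.0595). That difference passed in edgeR (adjusted p = 0.0472) and in DESeq2 (adjusted p = 0.0454), and in limma without double KD replicate 2 (-0.36, adjusted p = 0.00039). Multiplying the single knockdown percentages gives 36.1% of control for LOXL4, beside 47.7% measured in the double KD. The interaction of 0.40 (95% interval 0.12 to 0.69) did not pass over all genes (adjusted p = 0.117, unadjusted p = 0.00813), and without double KD replicate 2 it was 0.30 (adjusted p = 0.054). LOXL4 shares 152 exon bases, or 4.16% of its exon length, with an antisense gene that had 8.23 to 34.7 normalised counts.

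LOXL1, which is known for its role in elastic fibres, was lower in SIRT1 KD cells, and its other differences were smaller or less stable. The gene (ENSG00000129038.16) lies on chromosome 15 at 73925989 to 73952137 on the plus strand. It had 415, 579 and 459 normalised counts in double KD cells, 418, 446 and 438 in SIRT1 KD cells, 496, 525 and 489 in IGF2BP2 KD cells, and 561, 558 and 624 in control cells. SIRT1 KD and IGF2BP2 KD libraries all lay below the control libraries, whereas double KD replicate 2 lay among the controls and its partners did not.

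LOXL1 fell by 0.42 in SIRT1 KD cells against control (log2, SE 0.10, adjusted p = 0.00415). The double KD difference of -0.28 passed by a small margin (95% interval -0.49 to -0.06, adjusted p = 0.0435). That call was lost when any library other than double KD replicate 2 was left out; without that replicate the difference was -0.41 (adjusted p = 3.99e-05). In IGF2BP2 KD cells the difference was -0.21 (95% interval -0.42 to 0.01, adjusted p = 0.193), and it passed without double KD replicate 2 (adjusted p = 0.0266), where the difference itself is the same and the spread estimate is smaller. The interaction of 0.35 did not pass (adjusted p = 0.206), and without double KD replicate 2 it was 0.21 (adjusted p = 0.227).

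LOXL1 shares 335 bases, or 9.21% of its exon length, with the antisense gene LOXL1-AS1. LOXL1-AS1 had 161 to 222 normalised counts in double KD, 239 to 264 in SIRT1 KD, 169 to 172 in IGF2BP2 KD and 238 to 281 in control cells. The antisense counts were thus lower than in control in double KD and IGF2BP2 KD libraries and overlapped control in SIRT1 KD libraries, where the LOXL1 mean was lowest. Their part in the LOXL1 counts was not tested.

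LOXL2, an enzyme of collagen IV cross-linking that is also known for nuclear roles in epithelial-mesenchymal transition, was the most abundant member. The gene (ENSG00000134013.16) lies on chromosome 8 at 23297189 to 23425328 on the minus strand. It had 7821, 10675 and 8437 normalised counts in double KD cells, 8177, 7343 and 7734 in SIRT1 KD cells, 8655, 9045 and 8647 in IGF2BP2 KD cells, and 7718, 7524 and 7880 in control cells. IGF2BP2 KD libraries all lay above control libraries, double KD and SIRT1 KD libraries overlapped control, and double KD replicate 2 was the highest of all. SIRT1 KD and control means differed by 0.01 on the log2 scale (95% interval -0.17 to 0.19, adjusted p = 0.965).

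The LOXL2 difference of 0.19 in IGF2BP2 KD cells (95% interval 0.01 to 0.37) did not pass over all genes (adjusted p = 0.158). It passed without double KD replicate 2 (adjusted p = 0.00506), with the same difference. In double KD cells the difference was 0.21 (95% interval 0.03 to 0.39, adjusted p = 0.0734). Without double KD replicate 2 it came to 0.08 (adjusted p = 0.333), and with replicate 1 of that group left out to 0.30 (adjusted p = 0.00738). LOXL2 shares 120 exon bases with ENTPD4 and 178 with LOXL2-AS1, or 2.10% and 3.12% of its exon length.

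LOXL3, a lysyl oxidase needed for palate and spine development in mice, was near the lower end of what these libraries can resolve. The gene (ENSG00000115318.12) lies on chromosome 2 at 74532414 to 74555690 on the minus strand. It had 64.1, 76.9 and 68.0 normalised counts in double KD cells, 85.4, 72.4 and 60.01 in SIRT1 KD cells, 51.7, 54.2 and 67.1 in IGF2BP2 KD cells, and 69.9, 69.1 and 79.1 in control cells. IGF2BP2 KD libraries lay below the control libraries, and the other groups overlapped control. The difference was -0.06 in double KD (95% interval -0.40 to 0.28), -0.01 in SIRT1 KD (95% interval -0.35 to 0.33) and -0.33 in IGF2BP2 KD cells (95% interval -0.67 to 0.01), and the lowest adjusted p of these was 0.181. Without double KD replicate 2 the double KD difference was -0.13 (adjusted p = 0.595). At 54 to 86 reads per library, changes within these intervals were not detectable. LOXL3 shares 625 bases, or 14.3% of its exon length, with HTRA2, which had 544 to 976 normalised counts, so a part of its reads could belong to HTRA2.

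**Figure D2:**
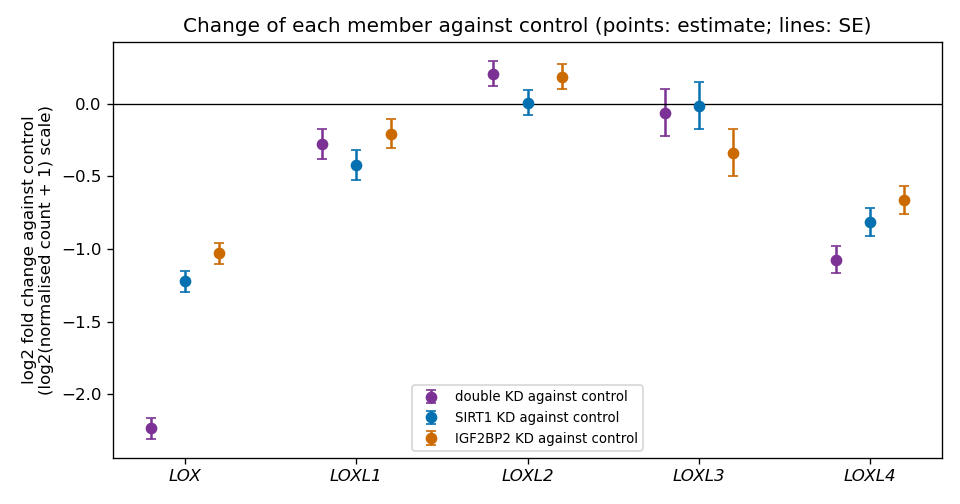
Log2 fold changes against control on the log2(normalised count + 1) scale for double KD, SIRT1 KD and IGF2BP2 KD cells; points are estimates from the fit over 12 libraries and lines are the SE. LOX reaches -2.23 in double KD cells, LOXL4 lies between -1.07 and -0.66, and LOXL2 lies at or above 0.01.

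Among the 4 members given a test, LOXL1 and LOXL4 fell in SIRT1 KD cells against control. Over all 17576 genes tested, 28.6% were called in that comparison, 12.9% higher and 15.7% lower. LOXL4 alone of the 4 fell in IGF2BP2 KD cells, where 16.3% of all genes were called, 6.86% higher and 9.39% lower. LOXL1 and LOXL4 fell in double KD cells against control, where 34.2% of all genes were called, 16.7% higher and 17.5% lower. The family was proposed from these contrasts, so nothing is read from its share.

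Against SIRT1 KD, 0 of the 4 passed in limma in the double KD, 2 had an unadjusted p under 0.05 (LOXL2 and LOXL4), and edgeR and DESeq2 each called 1, LOXL4. Of all genes 22.6% were called there, 11.9% higher and 10.7% lower. Against IGF2BP2 KD, LOXL4 fell in the double KD, and 31.6% of all genes were called, 16.4% higher and 15.2% lower. For the interaction limma called 0 of the 4, with LOXL1 and LOXL4 at an unadjusted p under 0.05, and edgeR and DESeq2 called 0. Among all genes 2.86% had an interaction, 1.7% higher and 1.16% lower.

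Levels of different members were compared as normalised counts per kilobase of merged exon. In control cells LOXL2 was highest at 1351 ± 31.2, followed by LOXL4 at 1003 ± 59.7, LOX at 472 ± 15.7, LOXL1 at 159.8 ± 10.2 and LOXL3 at 16.7 ± 1.27 (SD, n = 3). Libraries of neighbours in that order did not overlap. LOX kept its place above LOXL1 in SIRT1 KD cells (202 ± 8.63 against 119 ± 3.93 for LOXL1) and in IGF2BP2 KD cells (231 ± 5.18 against 138 ± 5.33 for LOXL1). The order of LOX and LOXL1 was turned round in double KD cells. There LOX had 92.8 to 110.0 per kilobase, below LOXL1 at 114 to 159. Before division by length the double KD means were 556 for LOX and 484 for LOXL1. The turn in order thus depends on the merged exon lengths, 5547 bases for LOX and 3637 for LOXL1.

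Summed per kilobase, the family came to 2301 ± 347 in double KD, 2268 ± 134 in SIRT1 KD, 2557 ± 99.6 in IGF2BP2 KD and 3001 ± 102 in control cells. LOX made up 4.42% ± 0.713 of that sum in double KD, 8.91% ± 0.257 in SIRT1 KD, 9.05% ± 0.371 in IGF2BP2 KD and 15.7% ± 0.0823 in control cells. The LOXL4 share was 20.9% ± 0.769 in double KD, 25.2% ± 1.11 in SIRT1 KD, 24.8% ± 1.55 in IGF2BP2 KD and 33.4% ± 1.05 in control cells. The LOXL2 share was higher in the knockdown groups. It was 68.3% ± 1.08 in double KD, 59.9% ± 0.613 in SIRT1 KD, 60.2% ± 1.30 in IGF2BP2 KD and 45.0% ± 0.846 in control cells (SD, n = 3 each). The LOX share follows from the LOX values that chose the family. The LOXL4 and LOXL2 shares also depend on LOXL4, which had 478 per kilobase in double KD and 1003 in control cells. All these shares contain LOX in the sum and are a description.

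**Figure D3:**
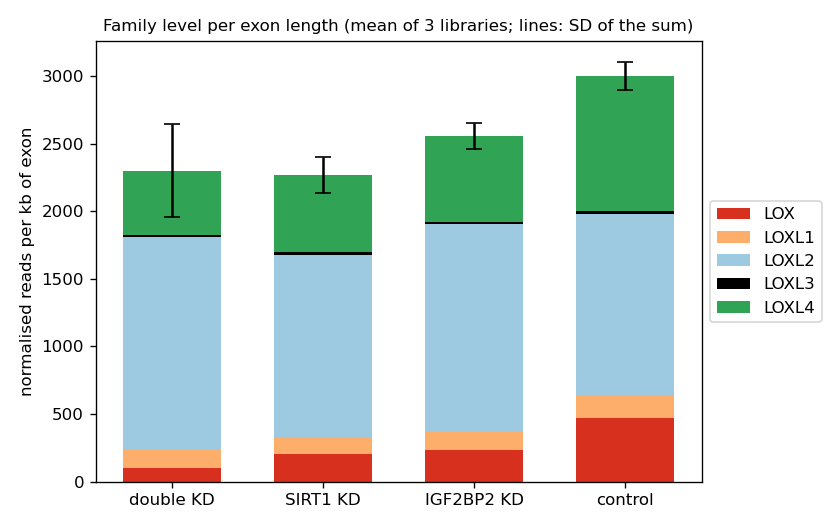
Normalised counts per kilobase of exon, stacked by member, for double KD, SIRT1 KD, IGF2BP2 KD and control cells; bars are means of 3 libraries and lines are the SD of the family sum. The LOX segment is 100.3 in double KD and 472 in control cells, while the LOXL2 segment is 1573 in double KD and 1351 in control cells.

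The genes nearest to LOX in pattern were taken from 10464 protein-coding genes with a mean of 5 CPM or more (reads scaled to a fixed library total), by the root mean square difference of log2 values over 12 libraries after centring on control. ICMT, the enzyme that methylates the prenylated cysteine of RAS-type proteins, was nearest at 0.183. It averaged 369.95 ± 39.1 normalised counts in double KD, 613 ± 35.7 in SIRT1 KD, 663 ± 47.9 in IGF2BP2 KD and 1535 ± 118 in control cells. TGFB2, a TGF-beta ligand, followed at 0.257, with 1018 ± 151 in double KD, 2747 ± 184 in SIRT1 KD, 2020 ± 89.4 in IGF2BP2 KD and 4772 ± 259 in control cells. The next were IGFBP1, a secreted binder of insulin-like growth factors (0.305), LRP12, a lipoprotein receptor relative (0.306), and CEMIP, a hyaluronan-degrading factor (0.308). TGFB2 and IGFBP1 were lower in IGF2BP2 KD than in SIRT1 KD cells, and LRP12 and CEMIP the other way round.

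LOXL4 ranked 87 in that order, at 0.653, LOXL1 ranked 1478 and LOXL2 ranked 7618; LOXL3 was under the level cut. Of the 5 nearest genes, ICMT, TGFB2 and LRP12 hold CTCAGAT in the annotated 3′ UTR, and IGFBP1 and CEMIP hold neither word. TGFB2 also holds TCAGATA. Among all genes searched, 13.5% hold CTCAGAT and 11.2% hold TCAGATA. Their 3′ UTRs are 3887 bases in ICMT, 3257 in TGFB2, 1442 in LRP12, 577 in IGFBP1 and 2852 in CEMIP. These genes were chosen for their values and the words were picked from these same data, so the matches are a description of 5 genes.

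**Figure D4:**
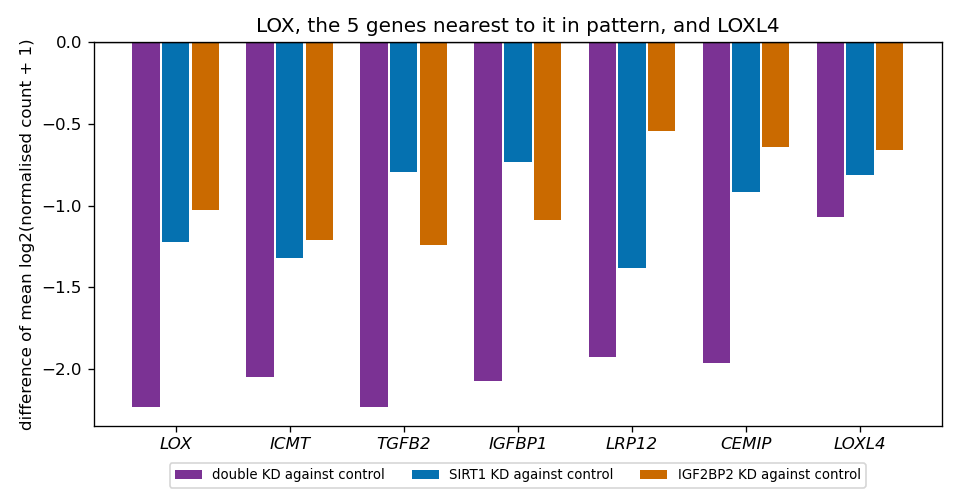
Differences of mean log2(normalised count + 1) from control in double KD, SIRT1 KD and IGF2BP2 KD cells for LOX, the 5 genes nearest to it in pattern, and LOXL4. The 5 genes lie between -2.24 and -1.93 in double KD cells, while LOXL4 lies at -1.07.

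In double KD, SIRT1 KD and IGF2BP2 KD cells against control, 16.7%, 12.9% and 6.86% of all genes tested rose and 17.5%, 15.7% and 9.39% fell, and the list counts that follow stand beside these shares. The substrates of the family did not move one way. Of 19 collagen and elastin genes, 16 were tested. In double KD cells 2 rose and 7 fell against control (median log2 difference -0.10), in SIRT1 KD cells 2 rose and 9 fell (median -0.26), and in IGF2BP2 KD cells 2 rose and 3 fell (median -0.12). Medians over all genes tested were 0.0057 in double KD, -0.0018 in SIRT1 KD and -0.0037 in IGF2BP2 KD cells. COL6A3, a chain of the microfibrillar collagen VI, fell by 1.33 in double KD (adjusted p = 2.02e-09) and by 0.77 in SIRT1 KD cells (adjusted p = 2.77e-06).

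COL5A1, a chain of a collagen that nucleates fibrils, went opposite ways in the single knockdowns. It had 5770, 7882 and 5450 normalised counts in double KD cells, 2980, 2663 and 2923 in SIRT1 KD cells, 9980, 11336 and 10446 in IGF2BP2 KD cells, and 6276, 5882 and 5996 in control cells. It fell by 1.08 in SIRT1 KD cells (log2, adjusted p = 6.08e-07) and rose by 0.81 in IGF2BP2 KD cells (adjusted p = 4.29e-05), with a difference of 0.05 in double KD cells (adjusted p = 0.735). COL8A1, a short-chain collagen, fell by 0.78 in double KD (adjusted p = 2.39e-08), by 0.24 in SIRT1 KD (adjusted p = 0.0077) and by 0.51 in IGF2BP2 KD cells (adjusted p = 1.5e-05).

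COL1A1, the main chain of collagen I, rose in double KD cells by 1.59 (adjusted p = 1.59e-06), with 536, 994 and 570.9 normalised counts against 218, 230 and 220 in control cells. Its partner chain COL1A2 fell by 1.80 (adjusted p = 2.71e-06) at 12.6 counts on average in double KD and 46.3 in control cells. Both are in the list of 9 fibroblast markers. That list summed to 702 to 1157 in double KD, 496 to 581 in SIRT1 KD, 679 to 720 in IGF2BP2 KD and 720 to 755 in control libraries. The sum joins opposite moves. COL1A1 averaged 700 in double KD, 326 in SIRT1 KD, 261 in IGF2BP2 KD and 223 in control cells. PDGFRB, also listed, averaged 126, 167, 376 and 437 in the same order. It fell by 1.79 in double KD (adjusted p = 7.72e-10) and by 1.39 in SIRT1 KD cells (adjusted p = 3.11e-08). LUM differed by -0.47 in double KD cells and did not pass (adjusted p = 0.235). COL3A1, DCN, PDGFRA, FAP and THY1 from that list were too low to test. ELN, the elastin gene, had 7.14 to 19.9 normalised counts in any library.

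Of 16 genes whose products activate lysyl oxidases or hold them on the matrix, 12 were tested, and the changes that passed were falls. There were 6 in double KD (median -0.41), 7 in SIRT1 KD (median -0.37) and 2 in IGF2BP2 KD cells (median -0.10), beside falls in 17.5%, 15.7% and 9.39% of all genes in these groups. Rises numbered 0 in limma in each group; at an unadjusted p under 0.05 there were 0 in double KD, 0 in SIRT1 KD and 1 in IGF2BP2 KD cells, and edgeR and DESeq2 also called 0, 0 and 1. THBS1, a matricellular glycoprotein, fell by 1.53 in double KD (adjusted p = 4.28e-12) and fell by 1.56 in SIRT1 KD cells (adjusted p = 1.29e-11), with a difference of -0.04 in IGF2BP2 KD cells.

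FN1 encodes fibronectin, which binds LOX and supports its processing. It had 9539, 8339 and 9617 normalised counts in double KD cells, 20940, 18420 and 21066 in SIRT1 KD cells, 12727, 15547 and 14403 in IGF2BP2 KD cells, and 19015, 16505 and 19703 in control cells. The double KD libraries were the lowest and SIRT1 KD libraries overlapped control. FN1 fell by 1.00 in double KD (adjusted p = 6.59e-08) and by 0.37 in IGF2BP2 KD cells (adjusted p = 0.00579), and its interaction of -0.76 passed (adjusted p = 0.00347), with the double KD below the sum of the single changes. BMP1, the protease that cuts the LOX propeptide, fell by 0.43 in SIRT1 KD cells (adjusted p = 0.000303), and its difference in double KD cells was 0.01. FMOD, a collagen-binding proteoglycan, fell by 1.62 in double KD (adjusted p = 4.45e-05) and fell by 0.95 in SIRT1 KD cells (adjusted p = 0.00637). FMOD was low, at 9 to 41 reads per library. EFEMP2, which carries LOX to elastin, fell by 0.44 in IGF2BP2 KD cells (adjusted p = 0.0357). POSTN had at most 3.83 normalised counts and was not tested.

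All 11 genes of copper delivery were tested. In double KD cells 5 rose and 2 fell (median 0.13), in SIRT1 KD cells 4 rose and 1 fell (median 0.08), and in IGF2BP2 KD cells 1 rose and 2 fell (median -0.05). The rises in SIRT1 KD cells included metallothioneins, which bind copper and zinc. MT1E rose by 0.91 in double KD (adjusted p = 8.28e-08) and by 1.23 in SIRT1 KD cells (adjusted p = 3.39e-09), MT1X rose by 0.54 in double KD and 1.07 in SIRT1 KD cells, and MT2A rose by 0.30 in double KD (adjusted p = 0.0166) and by 0.84 in SIRT1 KD cells (adjusted p = 1.71e-06). ATP7A, the pump that loads copper onto secreted enzymes such as LOX, rose by 0.21 in double KD (adjusted p = 0.0348) and by 0.52 in IGF2BP2 KD cells (adjusted p = 6.88e-05). ATOX1, its copper chaperone, rose by 0.54 in double KD (adjusted p = 0.000523) and by 0.46 in SIRT1 KD cells (adjusted p = 0.0026). STEAP3, a metalloreductase, fell by 1.18 in double KD (adjusted p = 4.51e-10) and by 0.83 in IGF2BP2 KD cells (adjusted p = 2e-07). The fall in SIRT1 KD cells was that of ATP7B (-0.54, adjusted p = 0.000399). SLC31A1, also in the list, averaged 1674 in double KD, 2068 in SIRT1 KD, 1606 in IGF2BP2 KD and 1954 in control cells.

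All 19 enzymes and chaperones of collagen modification and folding were tested. In double KD cells 2 rose and 11 fell (median -0.29), in SIRT1 KD cells 2 rose and 8 fell (median -0.21), and in IGF2BP2 KD cells 2 rose and 4 fell (median -0.10). PLOD2, whose hydroxylation of telopeptide lysines decides the kind of cross-link that lysyl oxidases start, fell in all 3 groups. It had 1275, 1139 and 1292 normalised counts in double KD cells, 1982, 1843 and 1922 in SIRT1 KD cells, 1899, 1650 and 1844 in IGF2BP2 KD cells, and 2404, 2435 and 2624 in control cells. The control libraries were highest and the double KD libraries lowest, without overlap. The PLOD2 change was a fall by 1.01 in double KD (adjusted p = 5.85e-09), by 0.38 in SIRT1 KD (adjusted p = 0.00066) and by 0.47 in IGF2BP2 KD cells (adjusted p = 0.000182).

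P4HA1, a subunit of prolyl hydroxylase, fell by 0.88 in double KD (adjusted p = 6.48e-09), by 0.34 in SIRT1 KD (adjusted p = 0.000501) and by 0.23 in IGF2BP2 KD cells (adjusted p = 0.0173). COLGALT2, a collagen galactosyltransferase, rose by 0.65 in IGF2BP2 KD cells (adjusted p = 6.6e-05), with a difference of -0.04 in double KD cells and an interaction of -0.68 (adjusted p = 0.00993).

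Other matrix cross-linking and amine oxidase enzymes numbered 9, of which 6 were tested; 4 fell in double KD (median -0.74), 2 in SIRT1 KD (median -0.14) and 2 in IGF2BP2 KD cells (median -0.28). Rises numbered 0 in limma, at an unadjusted p under 0.05, in edgeR and in DESeq2 in each group. TGM2, a transglutaminase, was among the falls in all 3 groups, by 0.74 in double KD (adjusted p = 1.13e-07), 0.21 in SIRT1 KD (adjusted p = 0.0265) and 0.28 in IGF2BP2 KD cells (adjusted p = 0.00687). PXDN, which cross-links collagen IV, fell by 0.75 in double KD (adjusted p = 5.33e-08) and by 0.96 in SIRT1 KD cells (adjusted p = 4.32e-09), and differed by 0.12 in IGF2BP2 KD cells.

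LOX is known as a hypoxia-induced gene, and 23 genes of that response, its HIF subunits and VHL included, were all tested. In double KD cells 3 rose and 14 fell (median -0.35), in SIRT1 KD cells 6 rose and 9 fell (median -0.08), and in IGF2BP2 KD cells 3 rose and 6 fell (median 0.15). The SIRT1 KD rises included the HIF subunit ARNT (0.36, adjusted p = 0.000432) and VHL (0.27, adjusted p = 0.0498). The HIF subunit HIF1A went the other way in SIRT1 KD cells (-0.49, adjusted p = 0.000274), and EPAS1 differed by -0.15 (adjusted p = 0.0848). The rises in IGF2BP2 KD cells numbered 11 when double KD replicate 2 was left out and 6 when replicate 1 of that group was. VEGFA, the angiogenic growth factor, fell by 1.18 in double KD (adjusted p = 8.33e-10), by 0.41 in SIRT1 KD (adjusted p = 0.000297) and by 0.87 in IGF2BP2 KD cells (adjusted p = 2e-07). The carbonic anhydrase CA9 fell by 1.34 in double KD (adjusted p = 1.32e-05) and fell by 1.54 in SIRT1 KD cells (adjusted p = 3.6e-06), with a difference of 0.46 in IGF2BP2 KD cells (adjusted p = 0.0938). Its relative CA12 fell by 0.88 in double KD (adjusted p = 1.47e-05) and fell by 1.08 in SIRT1 KD cells (adjusted p = 1.75e-06), and rose by 0.46 in IGF2BP2 KD cells (adjusted p = 0.0123). NDRG1, a stress-response gene, fell by 0.55 in double KD (adjusted p = 2.43e-06) and fell by 0.40 in IGF2BP2 KD cells (adjusted p = 0.000274), and rose by 0.33 in SIRT1 KD cells (adjusted p = 0.00084). BNIP3, a mitophagy receptor, fell by 0.33 in double KD (adjusted p = 0.000311) and fell by 0.34 in SIRT1 KD cells (adjusted p = 0.000318), and rose by 0.29 in IGF2BP2 KD cells (adjusted p = 0.00301).

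TGF-beta is a known inducer of LOX, and 15 genes of its matrix and signalling response were all tested. In double KD cells 1 rose and 9 fell (median -0.53), in SIRT1 KD cells 1 rose and 11 fell (median -0.49), and in IGF2BP2 KD cells 3 rose and 7 fell (median 0.09), beside falls in 17.5%, 15.7% and 9.39% of all genes in these groups. The IGF2BP2 KD median thus lay above 0 although more genes fell than rose. TGFB2 fell by 2.24 in double KD (adjusted p = 5.95e-12), by 0.80 in SIRT1 KD (adjusted p = 2.85e-06) and by 1.24 in IGF2BP2 KD cells (adjusted p = 5.39e-08). CCN2, a matricellular TGF-beta target, fell by 1.39 in double KD (adjusted p = 1.41e-10), by 0.93 in SIRT1 KD (adjusted p = 3.64e-08) and by 0.68 in IGF2BP2 KD cells (adjusted p = 4.44e-06). TGFBI, a matrix adaptor protein, fell by 1.05 in double KD (adjusted p = 2.14e-08) and by 1.29 in SIRT1 KD cells (adjusted p = 3.05e-09). PMEPA1, a feedback inhibitor of the pathway, rose by 0.73 in IGF2BP2 KD cells (adjusted p = 5.01e-07) and fell by 0.30 in SIRT1 KD cells (adjusted p = 0.0021). All comparisons with control share the same 3 control libraries, so their values are given side by side and were not correlated.

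The list counts were recomputed with each library left out in turn. Falls in double KD cells then numbered 7 to 8 among substrates, 5 to 7 among activators and scaffolds, 8 to 12 among modifying enzymes, 13 to 15 among hypoxia genes and 8 to 11 among TGF-beta genes. Without double KD replicate 2 they were 8, 7, 12, 15 and 11 in that order, with rises of 2, 0, 2, 3 and 1; copper delivery then had 5 rises and 3 falls, and the other cross-linking enzymes 4 falls. Falls in SIRT1 KD cells numbered 8 to 10 among substrates, 6 to 7 among activators and scaffolds, 6 to 11 among modifying enzymes, 9 to 11 among hypoxia genes and 10 to 11 among TGF-beta genes.

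Small counts moved more. Copper delivery rises in double KD cells numbered 3 without control replicate 2, and hypoxia rises there numbered 5 without double KD replicate 1. Without double KD replicate 2, IGF2BP2 KD cells had 4 rises among substrates, 4 falls among activators and scaffolds and 5 rises among TGF-beta genes. Those TGF-beta rises numbered 1 without control replicate 1, control replicate 3 or IGF2BP2 KD replicate 2. Falls among modifying enzymes in IGF2BP2 KD cells numbered 2 without any 1 control library or without IGF2BP2 KD replicate 1. In the comparisons with control, the remaining counts of 0 to 2 moved by at most 2 genes.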

How the data were processed

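Total RNA from 12 libraries was sequenced from libraries made of 1 µg with an Ultra II kit (New England Biolabs), per the labels' protocols. Per the submitters' processing notes, CASAVA, STAR and DESeq2 were used with the build GRCh38.p13; the sources used here give neither annotation nor strand setting. The authors deposited a signal per gene, namely size-factor-normalised counts, and all values (100%) were whole multiples of a step within 0.001 reads, so reads were recovered. The authors' deposited table of log2 ratios, for 15209 protein-coding genes, names its libraries in full and was used for a column check only. Of the 4 group codes in the main table, 3 were read from their letters, and that of SIRT1 KD was taken by elimination. Over 11503 genes each column matched its own library to within 0.00400 (SD of log2 differences), and the smallest such SD to any other library was 0.132. The 12 columns of a raw count table carry no names and were not used. Of 60649 IDs, 60507 were matched to a symbol and 58381 to GENCODE 29.

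The test was limma 3.58.1 (R 4.3.3, trend and robust settings) on log2(normalised count + 1) with a mean per group over all 12 libraries. The filter was filterByExpr (edgeR 4.0.16, minimum count 10) on recovered reads. A call needed a Benjamini-Hochberg adjusted p under 0.05 over all genes; the intervals are 95% intervals of the fit. The pseudocount understates changes of low genes. Precision follows from 54 to 86 reads per library for LOXL3 and 397 to 2805 for LOX. Same-numbered libraries did not deviate together: in 0 of 18 pairs did the correlation exceed 0.1 (range -0.19 to 0.10), so no block was used. Alternatives were pseudocounts of 0.5 and 5, no filter, TMM scaling, edgeR's quasi-likelihood test and DESeq2 1.42.0 on recovered reads, a fit of the compared groups alone, a replicate block, and each library left out. Scripts were tested on simulated data. Genes named are the 5 members, SIRT1, IGF2BP2, the 5 genes most like LOX, up to 4 genes of lowest adjusted p per list and comparison, and list members whose level or difference is described beside these. A gene that this rule names is not reported here. The members and the 7 gene lists were chosen with earlier results of these data known. Protein sequences were not used here.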

Additional observations from a re-analysis of the deposited data

How the results depend on the processing

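Of 595 member differences recomputed under an alternative, 569 kept their side of the threshold (LOX, without a test, moved by less than the replicate spread), 26 moved across it and 0 called values changed sign. Fits of the compared groups alone gave other counts of called genes: 7784 against 5030 for SIRT1 KD, 5122 against 2857 for IGF2BP2 KD, and in the double KD 2251 against 3980 relative to SIRT1 KD and 3640 against 5550 relative to IGF2BP2 KD. List genes called in IGF2BP2 KD came to 59 in that fit. The same fits moved LOXL1 (-0.21, adjusted p = 0.0271) and LOXL2 (0.19, adjusted p = 0.00159) past the threshold in IGF2BP2 KD, and LOXL1 below it in the double KD (-0.28, adjusted p = 0.133), as did testing without a filter (-0.28, adjusted p = 0.0947). No fit of compared groups alone exists for the interaction, for which DESeq2 called 919 genes against 503, and 17 list genes. LOXL4 in the double KD against SIRT1 KD passed without a filter (-0.26, adjusted p = 0.0497), with TMM (-0.27, adjusted p = 0.0496), edgeR (-0.27, adjusted p = 0.0472) and DESeq2 (-0.26, adjusted p = 0.0454).

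Leaving out 1 library at a time gave 1860 to 5028 called genes in IGF2BP2 KD and 116 to 1765 interactions, with the highest of each without double KD replicate 2, and 27 to 57 and 3 to 24 list genes. The LOXL1 difference ranged from -0.24 to -0.15 in IGF2BP2 KD, from -0.41 to -0.17 in double KD and from -0.21 to 0.035 in double KD against IGF2BP2 KD, where it passed without double KD replicate 2 (adjusted p = 0.0405). LOXL2 ranged from 0.17 to 0.20 in IGF2BP2 KD, from 0.076 to 0.30 in double KD, and from 0.069 to 0.29 in double KD against SIRT1 KD, passing there without double KD replicate 1 (adjusted p = 0.0131). LOXL4 in double KD against SIRT1 KD ranged from -0.36 to -0.20 and passed without SIRT1 KD replicate 2 (adjusted p = 0.0293) or double KD replicate 2. The cause of these shifts was not tested. With the replicate number as a block the counts were 5098, 2930 and 6083 for SIRT1 KD, IGF2BP2 KD and double KD against control, and 457 interactions, and the block changed no member's call. Of 1666 recomputed list counts, 186 moved by over 1.5 times. Depth limits the precision for LOXL3, at 54 to 86 reads.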
